A study of Mus musculus with 10 samples.

Results

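The genes described here encode the receptors and ligands with which the retinal pigment epithelium (RPE) takes up shed photoreceptor outer segments. They are the 3 TAM receptor tyrosine kinases Tyro3, Axl and Mertk, their ligands Gas6 and Pros1, the subunits Itgav and Itgb5 of integrin αvβ5, its bridging ligand Mfge8, the scavenger receptor Cd36, and Ptk2, which encodes focal adhesion kinase. The 10 genes were listed by name for this known function, with earlier results of these data already known, and matched to the gene identifiers of the count table. They are 10 of 47729 genes in the table and of 16362 that could be tested. Each of 5 wild-type CD1 mice gave a pair of libraries, made on postnatal day 40 (P40). The GFP control eye had received only AAV Best1 GFP. The Nrf2 eye of the same mouse had received this vector together with AAV Best1 hNrf2, which carries human Nrf2, a transcription factor known for turning on antioxidant genes. Adeno-associated virus (AAV) served to deliver the genes, and both vectors used the human Best1 promoter, which is active in the RPE. The Nrf2 vector was packaged in another capsid than the GFP vector, and no eye had received an equal dose of a different vector, so effects of Nrf2 and of the additional vector cannot be told apart. RNA was released from the cleaned eyecup after the retina had been taken out, so RNA of the choroid, of immune cells and of retina left behind could be present.

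Every day the RPE engulfs the tips of the photoreceptor outer segments. Exposed phosphatidylserine on the tip is recognised by bridging proteins: MFG-E8 links it to αvβ5, which binds the tip, and GAS6 and protein S link it to MERTK, which starts engulfment. FAK is known to pass the signal from αvβ5 to MERTK. Loss of MERTK is a cause of retinitis pigmentosa, in which outer segment debris builds up and photoreceptors die. Macrophages and microglia also use TAM receptors and αv integrins to clear dying cells.

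The libraries held 12298404 to 27310638 counts. Nfe2l2, the mouse gene of Nrf2, had 79.3 to 110 CPM (counts scaled to a common library total) in the control eyes and 267 to 414 CPM in the Nrf2 eyes, a total to which reads of the human vector may add. The labelled tissue was checked with 18 RPE marker genes. Their summed level was 24900 to 52700 CPM in control eyes and 13000 to 33300 CPM in Nrf2 eyes, and 10 of the 18 fell, Rpe65 among them, while none rose. The 8 that did not pass were Best1, Ttr, Mitf, Krt8, Krt18, Trpm1, Trpm3 and Ezr. Ttr, with the most CPM of the list, had means of 11500 CPM in control and 11800 CPM in Nrf2 eyes. Rgr, with the next most in control eyes, went from 8880 to 1430 CPM, so the sum was not read as the amount of RPE. Best1, whose promoter drove the vectors, was itself near 1 CPM in both groups. Whether the counting lost reads of this gene cannot be told from the table, so its low value was not read as absence of RPE. Of 18 markers of macrophages and microglia, 14 rose, and their sum went from 321 to 399 CPM in control eyes to 664 to 2720 CPM in Nrf2 eyes, higher in 5 of 5 mice. The 4 that did not pass were Ptprc, Itgam, Csf1r and Mrc1. Csf1r and Itgam had the highest control means of the list, 196 and 93.8 CPM, and so made up much of the control sums. The median log2 fold change of the 18 markers was 4. The summed rod markers were 22400 CPM in the control eye and 8840 CPM in the Nrf2 eye of mouse 2 and 3510 CPM in the control eye of mouse 4, against 166 to 591 CPM in the other libraries. Calls among the 10 genes that are lost without mouse 2 or mouse 4 are therefore also given without it.

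Across the 10 genes, Gas6 rose, Mertk and Itgav fell, and the other 7 did not pass the test (edgeR quasi-likelihood test with the mouse as a block, adjusted p under 0.05 over all genes). These 3 of 10 genes stand beside 6.33% of all tested genes, of which 3.6% were higher and 2.73% lower in the Nrf2 eyes. The median log2 fold change was 0.2 for the 10 genes and -0.01 for all tested genes. Gas6 was the only 1 of the 10 with CPM ranges of the groups that did not overlap, which was so for 6.28% of all tested genes. Mertk, Gas6, Itgav and Ptk2 moved in one direction in 5 of 5 mice, after scaling by TMM, the edgeR correction for RNA composition on which all fold changes and counts of mice rest. The count of 3 depended on single mice: it was 0 without mouse 2, 1 without mouse 4 or mouse 5, 0 with the rod markers as a covariate and 1 without the mouse block, with 4 of the 10 genes under an unadjusted p of 0.05 in each of the first 4 of these edgeR fits.

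**Figure D1:**
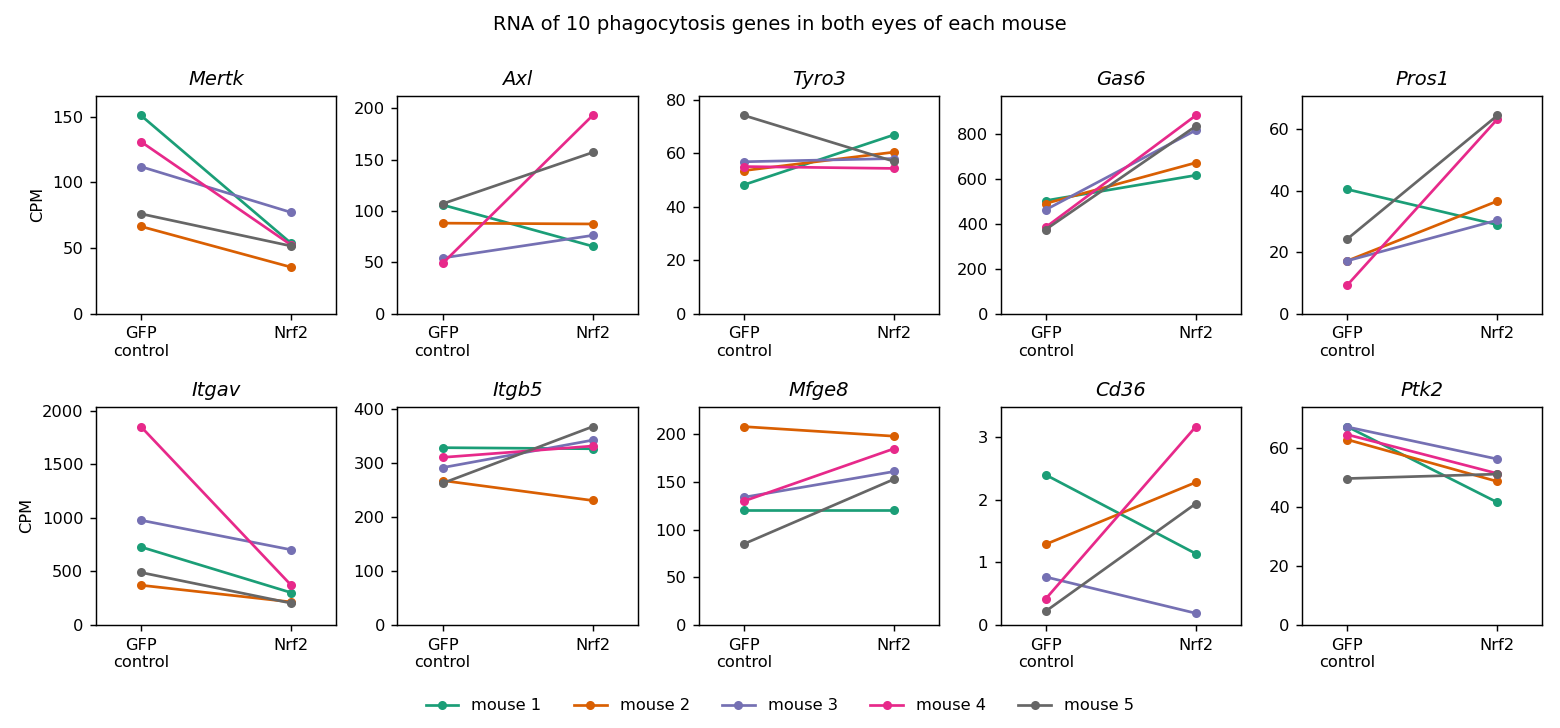
Level of each of the 10 genes in CPM (counts scaled to a common library total, linear axis from 0, a scale of its own in each panel) in the GFP control eye and the Nrf2 eye, with 1 line per mouse (n = 5). The lines of Mertk and Itgav go down and those of Gas6 go up in all 5 mice, whereas those of the other 7 genes go both ways, in Ptk2 with a small step up in mouse 5 alone.

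The start of a gene is where a transcription factor such as NRF2 would be looked for, so the promoters of the 3 genes that changed are shown. Each is the 200 bases before the RefSeq start (GRCm38.p6), read 5′ to 3′ on the gene's own strand. The bases just after this start were found in an annotated transcript for Itgav but not for Mertk and Gas6. Their stretches end a little before the annotated gene starts given below. The capitals mark matches of the GC box, GGGCGG, the motif of SP1-type factors, on either strand, where the opposite strand reads CCGCCC. For Mertk (chr2:128698715-128698914, plus strand) there were 3 matches, for Gas6 (chr8:13494536-13494735, minus strand) 4, and for Itgav (chr2:83724197-83724396, plus strand) 0.
Mertk: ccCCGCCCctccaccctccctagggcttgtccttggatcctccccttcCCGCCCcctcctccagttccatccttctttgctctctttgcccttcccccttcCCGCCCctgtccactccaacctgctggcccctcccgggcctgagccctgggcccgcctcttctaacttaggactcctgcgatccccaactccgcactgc
Gas6: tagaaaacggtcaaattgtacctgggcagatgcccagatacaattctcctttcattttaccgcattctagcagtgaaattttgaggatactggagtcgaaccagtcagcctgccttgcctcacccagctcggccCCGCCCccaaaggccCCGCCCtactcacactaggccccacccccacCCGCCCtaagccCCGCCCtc
Itgav: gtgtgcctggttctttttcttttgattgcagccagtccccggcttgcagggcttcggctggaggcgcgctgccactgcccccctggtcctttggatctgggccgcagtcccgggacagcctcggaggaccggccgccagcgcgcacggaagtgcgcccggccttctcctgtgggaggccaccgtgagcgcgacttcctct
Over the whole RefSeq promoter windows, which run somewhat past the start, 9 of the 10 genes could be matched, all but Ptk2. The bases just after the start were found in an annotated transcript for Itgav, Itgb5, Mfge8, Pros1 and Tyro3, but not for Mertk, Gas6, Axl and Cd36. The windows of Cd36 (chr5:17835847-17836146) and Tyro3 (chr2:119799264-119799563) lie inside the genes as placed below, away from their annotated starts. The shares that follow hold for these windows only. The core of the antioxidant response element to which NRF2 binds, TGACNNNGC, was in 0 of the 9 windows on either strand, beside 12.4% of all 32851 windows. The E-box CACGTG was also in 0 of the 9, beside 7.15% of all windows, and no match of the searched motifs overlapped another in the 3 sequences printed. The GC box was in 9 of 9 windows, beside 35.7% of all windows. In Itgav its match lay after the start. These matches describe the letters in the windows and not binding.

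Mertk (ENSMUSG00000014361, chromosome 2, 128698956 to 128802894, mm10), the receptor that starts engulfment, was lower in the Nrf2 eye of every mouse. It went from 151 to 53.7 CPM in mouse 1, from 66.5 to 35.5 in mouse 2, from 112 to 77.2 in mouse 3, from 131 to 52.4 in mouse 4 and from 76.1 to 51.6 in mouse 5. The groups overlapped, since mouse 3 had more in its Nrf2 eye than mice 2 and 5 had in their control eyes. The mean fell from 107 ± 36 CPM to 54.1 ± 14.9 CPM (SD, n = 5 each), a 1.97-fold decrease with a log2 fold change of -0.98 with an SE of 0.18 (adjusted p = 0.0129). The summed RPE markers fell in the same 5 eyes, with a mean log2 ratio of -0.9. Whether fewer RPE cells or less of this RNA per cell was present cannot be told apart here, and the part of the RPE markers in the result was not tested. Without mouse 2 the adjusted p was 0.0503, without mouse 4 it was 0.0508, without the mouse block 0.0675 and with the rod markers as a covariate 0.0728, with log2 fold changes from -1.06 to -0.83 over all 14 alternatives.

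Axl (ENSMUSG00000002602, chromosome 7, 25757273 to 25788705), a TAM receptor that responds to GAS6 as the other TAM receptors do, did not pass the test. Control eyes of mice 1 to 5 had 106, 88.2, 54.3, 49 and 107 CPM, and Nrf2 eyes had 65.7, 87.4, 76.3, 193 and 157 CPM. The mice went opposite ways: the level was higher in the Nrf2 eyes of mice 3, 4 and 5, most of all in mouse 4, lower in that of mouse 1 and almost equal in mouse 2. The log2 fold change was 0.43 with an SE of 0.42 (adjusted p = 0.577), with a 95% interval of -0.73 to 1.59 that leaves room for sizeable changes in either direction. The summed markers of pericytes and smooth muscle went from 1610 to 279, 606 to 455, 293 to 429, 310 to 1290 and 765 to 608 CPM in mice 1 to 5, the same way as Axl in mice 1, 3 and 4 and the opposite way in mouse 5. Those of choroidal melanocytes went from 7910 to 2760, 4160 to 3570, 3150 to 4770, 2590 to 6740 and 4390 to 5450 CPM, the same way as Axl in mice 1, 3, 4 and 5. The pigment genes Dct, Tyrp1 and Pmel had the most CPM of this list, with control means of 2090, 1060 and 814 CPM. Sox10 of the same list was lower in the Nrf2 eye of 5 of 5 mice (log2 fold change -1.74, adjusted p = 0.00291). The sum was therefore not read as the amount of melanocytes. With the pericyte and smooth muscle markers as a covariate, an alternative chosen after seeing the data, the log2 fold change of Axl was 0.77 (adjusted p = 0.0849), with the melanocyte markers, chosen likewise, it was 0.39 (adjusted p = 0.343), and with the rod markers 0.01 (adjusted p = 0.992). Without mouse 4 it was 0.11 and without mouse 1 it was 0.73.

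Tyro3 (ENSMUSG00000027298, chromosome 2, 119797733 to 119818104), the TAM receptor best known from neurons, had the smallest spread of the 3. It ranged from 48.2 to 74.1 CPM in control eyes, with a median of 55, and from 54.3 to 66.9 CPM in Nrf2 eyes, with a median of 58. The log2 fold change was 0.04 with an SE of 0.17 (adjusted p = 0.935), and its 95% interval was -0.42 to 0.5. The interval of Gas6, 0.33 to 1.2, overlapped it, and that of Mertk, -1.49 to -0.47, lay below it. The genes were not tested against each other. The sign of Tyro3 was negative in 2 of 14 alternatives, without mouse 1 and with the pericyte and smooth muscle markers as a covariate.

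Beside these levels, the makeup of the TAM receptor RNA was described, with no test. Per length (RPKM, CPM per kilobase of exon), the 3 receptors together had 50.2 ± 8.41 RPKM in control eyes and 45 ± 10.4 RPKM in Nrf2 eyes (SD, n = 5 each). Mertk made up 48.9% ± 12.3 of this sum in control eyes and 28.5% ± 9.25 in Nrf2 eyes. The share of Axl was 32.1% ± 10.3 and 49.1% ± 13.3, and that of Tyro3 was 18.9% ± 4.23 and 22.4% ± 6.37. On average Mertk was the largest share in the control eyes and Axl in the Nrf2 eyes, but the ranges of both overlapped between the groups. The log2 ratio of Axl to Mertk was -0.63 ± 0.85 in control eyes and 0.8 ± 0.83 in Nrf2 eyes, with a within-mouse difference of 1.43 ± 1.05 and a higher ratio in 5 of 5 mice. In mouse 4 this difference was 3.3, and in the other mice it was 0.8 to 1.11. The ratio of Tyro3 to Mertk was also higher in the Nrf2 eye of 5 of 5 mice, by 1.02 ± 0.69 on the log2 scale. These ratios share Mertk.

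**Figure D2:**
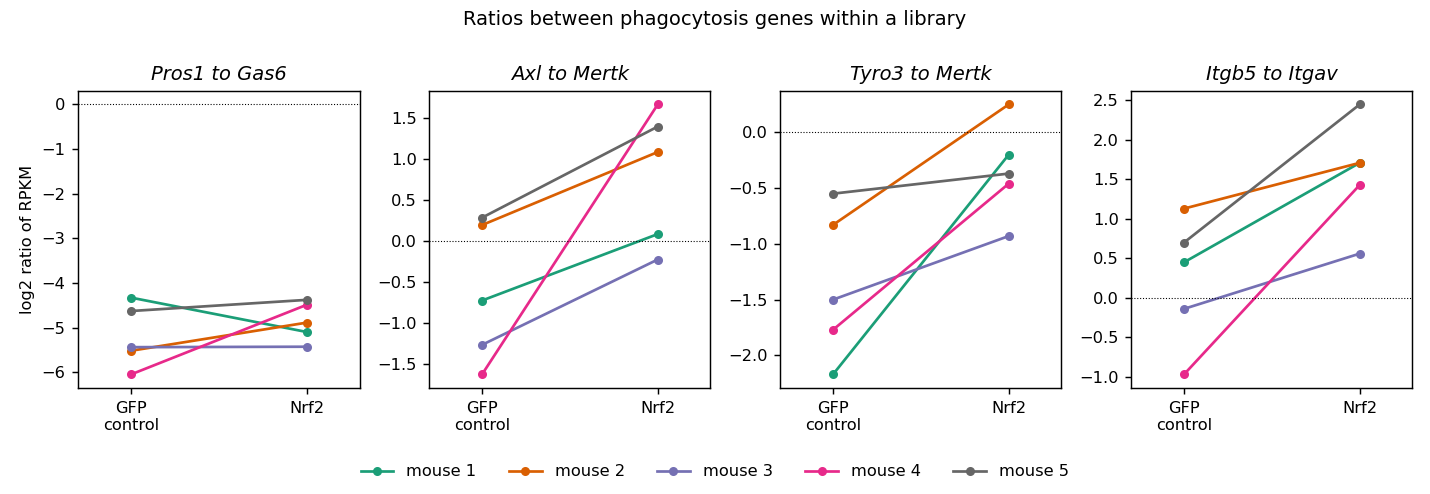
Log2 ratio of the length-scaled levels (RPKM) of gene pairs within a library, in the GFP control and the Nrf2 eye, with 1 line per mouse (n = 5) and a dotted line at equal levels. Axl to Mertk, Tyro3 to Mertk and Itgb5 to Itgav are higher in the Nrf2 eye of 5 of 5 mice, and Pros1 to Gas6 shows no common course.

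Among the ligands, Gas6 (ENSMUSG00000031451, chromosome 8, 13465374 to 13494490), which encodes the vitamin K-dependent ligand of all 3 TAM receptors, was higher in every Nrf2 eye than in any control eye. Control eyes of mice 1 to 5 had 505, 492, 464, 386 and 376 CPM, and Nrf2 eyes had 618, 674, 819, 885 and 837 CPM. The mice with the lowest control levels had the highest or nearly highest levels in the other eye, so the within-mouse differences ran from small in mice 1 and 2 to large in mice 4 and 5. The mean rose from 445 ± 59.9 CPM to 767 ± 114 CPM (SD, n = 5 each), 1.7-fold, with a log2 fold change of 0.77 with an SE of 0.16 (adjusted p = 0.0265). The summed markers of macrophages and microglia, cells that can express Gas6, were also higher in the Nrf2 eye of 5 of 5 mice, from 321 to 399 CPM in control eyes to 664 to 2720 CPM, and their part in the result was not tested. Without mouse 2, 3, 4 or 5 the adjusted p was 0.0531, 0.0776, 0.0743 or 0.0837, and with the rod markers as a covariate it was 0.123, while the log2 fold change stayed between 0.67 and 0.9 over the 14 alternatives. Gas6 shares 34 exon bases with Tmem255b on the opposite strand, which had a mean of only 0.347 CPM in control eyes.

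Pros1 (ENSMUSG00000022912, chromosome 16, 62854307 to 62929346), the gene of protein S, the anticoagulant that also binds TYRO3 and MERTK, had a larger log2 fold change than Gas6 with far more spread. It was 40.4, 17.2, 17.2, 9.32 and 24.3 CPM in the control eyes of mice 1 to 5 and 28.9, 36.6, 30.4, 63.2 and 64.4 CPM in the Nrf2 eyes. Mouse 1 was lower in the Nrf2 eye and the other 4 mice were higher, most of all mouse 4. The log2 fold change of 1.09 (SE 0.49) did not pass with an adjusted p of 0.181, and its 95% interval ran from -0.28 to 2.46. It passed in 2 of 14 alternatives, with DESeq2 (adjusted p = 0.0241) and with the pericyte and smooth muscle markers as a covariate, chosen after seeing the data (adjusted p = 0.0184 in edgeR). With the rod markers as a covariate the log2 fold change was 0.59 (adjusted p = 0.407), and without mouse 4 it was 0.74 (adjusted p = 0.307). Gas6 was the main ligand RNA in both groups, with 97.1% ± 1.36 of the summed ligand RPKM in control eyes and 96.6% ± 0.969 in Nrf2 eyes. This sum was 180 ± 25.1 RPKM in control eyes and 312 ± 48.1 RPKM in Nrf2 eyes.

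Of the subunits of αvβ5, the α chain fell and the β chain did not pass the test. Itgav (ENSMUSG00000027087, chromosome 2, 83724397 to 83806916) had 728, 371, 977, 1850 and 490 CPM in the control eyes of mice 1 to 5 and 302, 215, 702, 372 and 204 CPM in their Nrf2 eyes. Every mouse was lower in the Nrf2 eye, but the mice themselves differed so widely that the groups overlapped, with 1 control eye, that of mouse 4, above all others. The mean fell from 882 ± 587 CPM to 359 ± 203 CPM (SD, n = 5 each), a 2.35-fold decrease with a log2 fold change of -1.23 with an SE of 0.32 (adjusted p = 0.0384). Mouse 4 also had the highest summed RPE markers, 52700 CPM in the control eye, beside 17800 CPM in its Nrf2 eye, and the part of this in the result was not tested. The call held in 6 of 14 alternatives. It was lost without the mouse block (adjusted p = 0.204), without mouse 1, 2 or 5 (0.0848, 0.0823 and 0.111) and with the rod markers as a covariate (0.122). The muscle (0.0509), pericyte and smooth muscle (0.0566) and melanocyte markers (0.064) as a covariate also ended it. The log2 fold changes ran from -1.37 to -0.92. Itgav shares 634 exon bases with the antisense transcript Gm13684, listed at under 1 CPM.

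Itgb5 (ENSMUSG00000022817, chromosome 16, 33829665 to 33949338), the β chain that pairs only with αv, had 329, 268, 292, 311 and 263 CPM in the control eyes and 327, 231, 343, 332 and 368 CPM in the Nrf2 eyes. The values lay close together, apart from the low Nrf2 eye of mouse 2. The log2 fold change was 0.1 with an SE of 0.11 (adjusted p = 0.738), with a 95% interval of -0.19 to 0.4. It was 0.22 without mouse 2 (adjusted p = 0.552) and 0.03 without mouse 5 (adjusted p = 0.942). The 95% interval of Itgav, -2.13 to -0.33, lay below that of Itgb5, and these genes were not tested against each other. Per length the α and β chains had similar means in control eyes, with 82.1 ± 54.6 RPKM and 82.3 ± 7.86 RPKM, but the median of Itgav was 67.7 RPKM, its mean was raised by the 172 RPKM of mouse 4, and the log2 ratio of Itgb5 to Itgav ran from -0.97 to 1.13 over the mice. In Nrf2 eyes they were 33.4 ± 18.9 RPKM and 90.1 ± 14.7 RPKM. The log2 ratio of Itgb5 to Itgav went from 0.23 ± 0.82 to 1.57 ± 0.68 and was higher in the Nrf2 eye of 5 of 5 mice, by 1.34 ± 0.76, which was not tested.

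Mfge8 (ENSMUSG00000030605, chromosome 7, 79133768 to 79149060), the bridge between phosphatidylserine and αv integrins, had 121, 208, 134, 130 and 85.1 CPM in control eyes and 121, 198, 161, 185 and 153 CPM in Nrf2 eyes. Mice 1 and 2 had almost equal eyes and mice 3, 4 and 5 were higher in the Nrf2 eye. The log2 fold change was 0.29 with an SE of 0.15 (adjusted p = 0.301), with a 95% interval of -0.11 to 0.7.

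Cd36 (ENSMUSG00000002944, chromosome 5, 17781690 to 17888801), a scavenger receptor linked to the speed of outer segment uptake in cultured RPE, was near the limit of these libraries. Its counts ran from 5 to 56 per library. Control eyes had 2.4, 1.29, 0.768, 0.418 and 0.22 CPM, and Nrf2 eyes had 1.14, 2.28, 0.188, 3.17 and 1.94 CPM. It was higher in the Nrf2 eye of 3 mice and lower in that of the other 2, and a change from -1.66 to 3.16 on the log2 scale lay within the 95% interval. The mice spread in both directions, and the log2 fold change of 0.75 (adjusted p = 0.729 in edgeR) was 0.25 without mouse 4, 0.19 without mouse 5, 1.39 without mouse 3, 1.34 without mouse 1 and 0.08 with the rod markers as a covariate.

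Ptk2 (ENSMUSG00000022607, chromosome 15, 73205102 to 73423280), the kinase between αvβ5 and MERTK, had 67.3, 62.9, 67.2, 64.6 and 49.7 CPM in control eyes and 41.6, 48.7, 56.3, 51.4 and 51.2 CPM in Nrf2 eyes. Mice 1 to 4 were lower in the Nrf2 eye, and mouse 5 had nearly the same level in both. The log2 fold change of -0.34 (SE 0.09) did not pass after adjustment (adjusted p = 0.126 in edgeR). Its 95% interval was -0.6 to -0.07, and it passed in 1 of 14 alternatives, the fit with the muscle markers as a covariate.

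**Figure D3:**
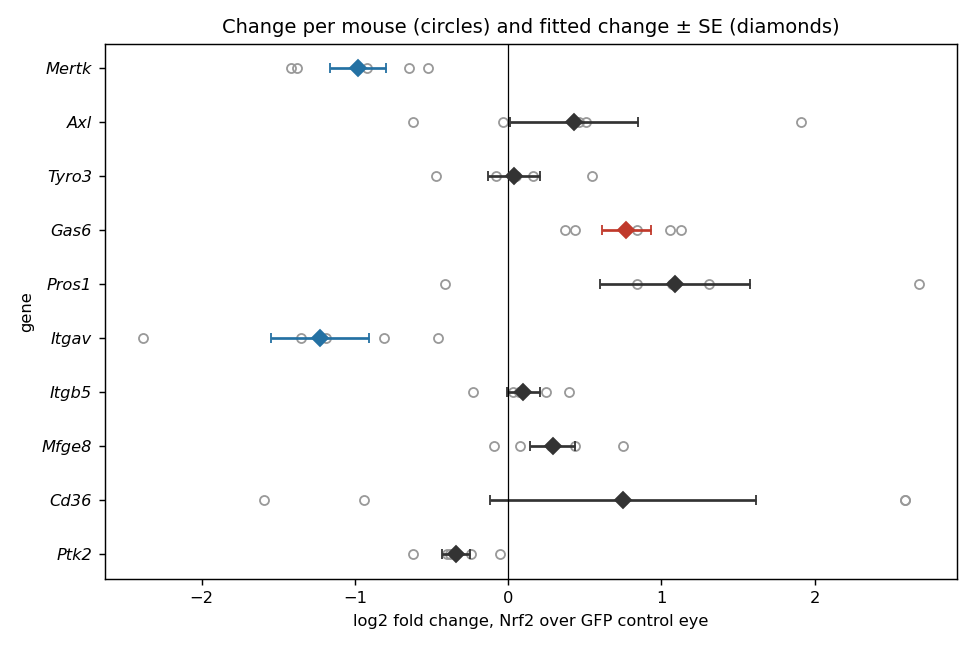
Log2 fold change of the Nrf2 over the GFP control eye for the 10 genes. Circles are the 5 mice, diamonds the fitted value with bars of ± 1 SE, red for Gas6, which rose, blue for Mertk and Itgav, which fell, and black for genes that did not pass. The circles of Gas6, Mertk, Itgav and Ptk2 lie on one side of 0, and those of Pros1, Axl and Cd36 spread the widest.

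Levels between genes were compared per length. In control eyes Gas6 was the most abundant, with 174 ± 23.5 RPKM, and Itgb5 and Itgav came next. Mfge8 had 28.9 ± 9.57 RPKM, Mertk 24.8 ± 8.29, Axl 16.1 ± 5.54 and Tyro3 9.28 ± 1.58. Pros1 with 5.3 ± 2.87 RPKM, Ptk2 with 5.28 ± 0.618 and Cd36 with 0.284 ± 0.243 were at the end. Only Gas6 and Itgb5, and Ptk2 and Cd36, were neighbours whose ranges did not overlap. Genes farther apart in the order could still be separate: Itgb5, with at least 74 RPKM, lay above Mfge8, with at most 44.4 RPKM, and above every gene after it. In Nrf2 eyes Gas6 had 301 ± 44.9 RPKM and Itgb5 90.1 ± 14.7, each above every value of the next gene. Itgav stood behind Mfge8 there, with 34.8 ± 6.36 RPKM for Mfge8, and Axl with 23 ± 11.1 RPKM before Mertk with 12.5 ± 3.43, but the ranges of both pairs overlapped.

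**Figure D4:**
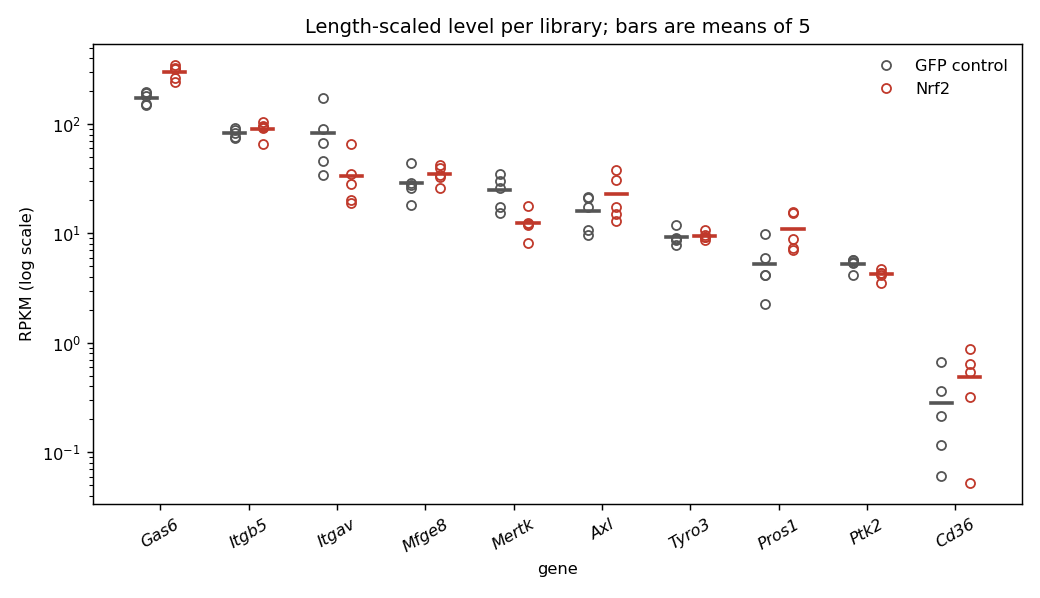
Length-scaled level (RPKM, log axis) of the 10 genes in each library, ordered by the mean of the control eyes. Circles are libraries, grey for GFP control and red for Nrf2, and bars are means of 5. The means of Gas6 are the highest and those of Cd36 the lowest in both groups, and 1 control circle of Itgav, at 172 RPKM, reaches into the range of Gas6.

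The wider uptake pathway was followed in 6 lists of 101 genes, of which 97 were tested. Of these, 9 rose and 6 fell, so 15.5% passed beside 6.33% of all tested genes, with a median log2 fold change of 0.02. The count of 15 was 5, 6, 6 and 9 without mouse 2, 3, 4 and 5, and 3 with the rod markers as a covariate. The 3 that passed with the rod markers were Havcr2, Vav1 and Ctsd. In that fit 3.09% of the pathway genes were called, the same share as of all genes, and without mouse 2 the shares were 5.15% and 3.58%. Itga8, Havcr2 and Vav1 passed the filter on low counts only through the Nrf2 eyes. They had 2, 1 and 4 control eyes at its limit of 0.55 CPM, so their calls support nothing about the lists. Among 8 other integrin chains that can pair with αv or with its partners, 1 rose, 1 fell and 6 did not pass, with a median of -0.29. Itgb8, another β chain that pairs with αv, fell from 826 ± 233 CPM to 405 ± 178 CPM (log2 fold change -1.09, SE 0.22, adjusted p = 0.0167), and was lower in 5 of 5 mice, as were the summed RPE markers, with a mean log2 ratio of -0.9, whose part was not tested. With the rod markers its adjusted p was 0.0698, and without mouse 2 it was 0.0663. Itga8, an α chain of the same RGD-binding group, had 0.14 to 1.99 CPM in control eyes and 2.59 to 7.56 CPM in Nrf2 eyes, a small level in either group. Itgb1, which had the most CPM of those that did not pass, had 196 ± 26.4 and 214 ± 54.5 CPM.

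None of 6 genes for other MERTK ligands and for vitamin K carboxylation, which GAS6 and protein S need for activity, passed in either direction with edgeR or DESeq2, and 1 had an unadjusted p under 0.05 in edgeR, with a median of 0.03. Lgals3, the gene of galectin-3, had the most CPM, with 408 ± 197 CPM in control and 444 ± 162 CPM in Nrf2 eyes. Of 6 genes that act in the shedding of receptors from the cell surface, 1 fell. This was Timp3, an inhibitor of metalloproteinases that is stored in Bruch's membrane, which went from 3730 ± 779 to 1710 ± 624 CPM without overlap of the groups (log2 fold change -1.2, SE 0.21, adjusted p = 0.0153). The summed RPE markers were lower in the same 5 of 5 eyes, and their part was not tested. With the rod markers the adjusted p of Timp3 was 0.0578, and without mouse 2 it was 0.0697. The metalloproteinase gene Adam9 had 116 ± 15 and 151 ± 21.8 CPM and did not pass, with an adjusted p of 0.146.

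Of 24 other receptors and bridges for phosphatidylserine and scavenged lipid, 20 were tested, all but Timd4, Havcr1, Msr1 and Olr1. Of the 20, 1 rose, 2 fell and 17 did not pass, with a median of 0.15. Havcr2, the gene of the phosphatidylserine receptor TIM-3, had 0.11 to 0.561 CPM in control eyes, at most 11 counts, and 1.95 to 17.5 CPM in Nrf2 eyes. As it passed the filter only through the group where it is high, this is given as a description. Scarb1, the receptor for high-density lipoprotein, fell from 133 ± 21.7 to 84.9 ± 6.62 CPM (log2 fold change -0.65, SE 0.12, adjusted p = 0.0205). Scarf1, a scavenger receptor best known from endothelium, fell from 6.76 ± 2.99 to 2.71 ± 0.192 CPM (adjusted p = 0.0426). Scarb1 was called in 9 and Scarf1 in 5 of 14 alternatives, and neither was called with the rod markers (adjusted p = 0.088 and 0.12), without mouse 2 (0.0618 and 0.129) or without mouse 4 (0.0662 and 0.0939). The summed RPE markers were lower in the same 5 of 5 eyes, and their part was not tested. Thbs1, the gene of thrombospondin-1, which binds CD36, had the most CPM of those without a call, with 1160 ± 304 and 1380 ± 536 CPM, though Anxa1 was higher per length.

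Of 35 genes of engulfment signalling and the cytoskeleton, 5 rose, 1 fell and 29 did not pass, with a median of 0.02. Vav1, an activator of RAC best known from blood cells, rose from 0.633 ± 0.22 to 7.16 ± 2.72 CPM (log2 fold change 3.46, SE 0.2, adjusted p = 0.000979). The Src family kinase Fyn rose from 9.14 ± 4.67 to 29.6 ± 10.1 CPM (adjusted p = 0.0113), and Elmo1, which acts with DOCK proteins on RAC, from 13 ± 6.99 to 30.2 ± 8.18 CPM (adjusted p = 0.036). Rock2 and Myh9, a kinase and a myosin of contraction, rose by less (adjusted p = 0.0219 and 0.0389), and Elmo2, a relative of Elmo1, fell from 160 to 113 CPM (adjusted p = 0.0129). Elmo2 was lower in 5 of 5 mice, as were the summed RPE markers, whose part was not tested. Vav1 was called in 14 of 14 alternatives, but it passed the filter only through the group where it is high, so this is given as a description. Fyn was called in 13, all but the rod markers (adjusted p = 0.0528). Elmo1 and Myh9 were called in 7 and Rock2 and Elmo2 in 9, and these 4 lost their calls with the rod markers (adjusted p from 0.0545 to 0.178), without mouse 2 (0.0587 to 0.0981) and without mouse 4 (0.0596 to 0.129). Anxa2, the gene of annexin A2, had the most CPM of those without a call, with 1500 ± 496 and 1720 ± 386 CPM. Rock2, Myh9 and Elmo2 lie outside the rule for named genes and are given to complete the count. Havcr2 and Vav1 are known from macrophages and microglia, whose summed markers rose in the same 5 of 5 eyes, and the part of those cells in these values was not tested.

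Of 22 genes that handle the phagosome after uptake, 2 rose, 1 fell and 19 did not pass, with a median of -0.02. Ctsd, the gene of cathepsin D, a lysosomal protease that degrades outer segment protein in the RPE, rose from 4240 ± 894 to 15300 ± 2960 CPM (log2 fold change 1.85, SE 0.11, adjusted p = 0.00221). Lamp2, a lysosomal membrane protein, rose from 483 ± 59.1 to 742 ± 90.4 CPM (adjusted p = 0.0276). Vamp8, which acts in vesicle fusion, fell from 335 ± 84.8 to 197 ± 29.3 CPM (adjusted p = 0.0438). It was lower in 5 of 5 mice, as were the summed RPE markers, whose part was not tested. Ctsd was called in 14 of 14 alternatives. Lamp2 and Vamp8 were called in 9 each, and neither with the rod markers (adjusted p = 0.111 and 0.115), without mouse 2 (0.0835 and 0.127) or without mouse 4 (0.0624 and 0.102). Lamp1 had 477 ± 35.4 and 663 ± 69 CPM, without overlap of the groups but with an adjusted p of 0.0532. Lysosomal genes are also used by macrophages and microglia, whose summed markers were 321 to 399 CPM in control and 664 to 2720 CPM in Nrf2 eyes, and the part of those cells in the values of Ctsd and Lamp2 was not tested.

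**Figure D5:**
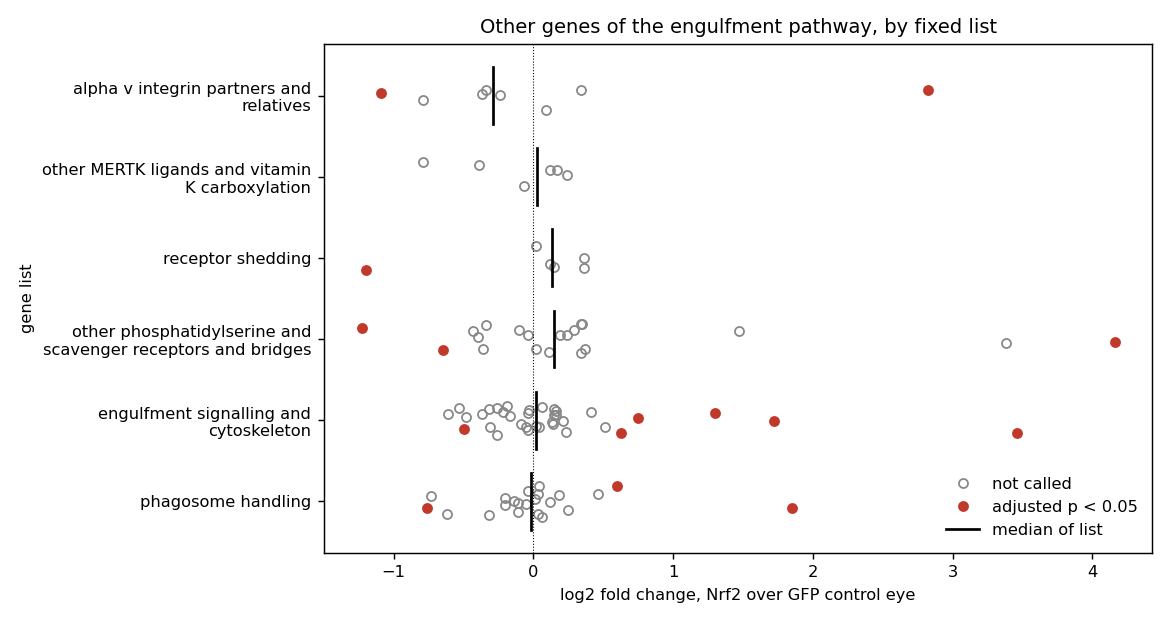
Log2 fold change of the Nrf2 over the GFP control eye for the 97 tested genes of 6 pathway lists. Each circle is 1 gene, filled red where the adjusted p was under 0.05, and the black bar is the median of the list. The medians lie between -0.29 and 0.15, and the 15 called genes lie on both sides of 0.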

How the data were processed

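RNA was sequenced from the RPE of 10 eyes of 5 mice. Per the labels, RNA of the eyecup was amplified with a low-input kit, and the libraries were sequenced in 2 runs that the labels do not assign. The authors aligned reads with STAR to mm10 and counted them per Ensembl gene with featureCounts, in parallel with Salmon (0.8.2 in the submitters' processing notes). Which of these made the deposited table, and its strand setting, are not given in the sources used here. The authors deposited whole-number counts without normalization. Genes were matched to GENCODE M21 (47310 of 47729, 99.1%). CPM divide counts by the library total, and RPKM are CPM per kilobase of merged exons.

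The mice were compared with edgeR 4.0.16 (R 4.3.3): filterByExpr, TMM, a design blocked by mouse, the quasi-likelihood F test, and Benjamini-Hochberg adjustment over 16362 genes, which hold 99.8% of the counts. Every p-value is from this test unless another is named. The script was tested on simulated data first. For the SE, log2 CPM with a prior count of 2 were subtracted within each mouse, and the SD of the 5 differences was divided by the root of 5. The 95% intervals use this SE and the t quantile. Log2 fold changes of genes with few counts depend on the prior count. The labels give the mouse of each eye. Deviations from the group means correlated at r = 0.19 to 0.71 between eyes of a mouse and at -0.42 to 0.28 between mice. The most similar libraries still differed beyond sampling noise (chi-square per degree of freedom 38.2). Amplified reads are not independent molecules.

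The 10 genes and the lists were chosen with earlier results of these data known. All 10 are named. From each pathway list the rule named the 3 largest changes among genes past the threshold that moved one way in 5 mice, and the gene with the highest mean CPM not past it. Alternatives were no mouse block, RLE scaling, DESeq2 1.42.0, no filter, thinning, rod or muscle markers as a covariate, leaving out each mouse, and, chosen after seeing the data, pericyte and smooth muscle or choroidal melanocyte markers as a covariate. Promoters are RefSeq windows on GRCm38.p6.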

Additional observations from a re-analysis of the deposited data

Results flagged for a closer look

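Itgb5 was far from its group in the Nrf2 eye of mouse 2, with 231 CPM against 327 to 368 CPM in the other 4 Nrf2 eyes. On the log2 scale, after TMM scaling, the gap to the nearest eye took 0.745 of the range of the group, above Dixon's critical value of 0.71 for 5 values, but on the CPM scale it took 0.695, which is below it. This was 1 of 20 groups checked, and chance gives about 1. The same eye had 8840 CPM of summed rod markers, more than any other Nrf2 eye, and their part in the Itgb5 value was not tested.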

How the results depend on the processing

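Over the 10 genes and 14 alternatives, 118 log2 fold changes kept their direction and their side of the threshold, 17 lost their call, 3 gained one and 2 changed sign. Over all genes, 1036 were called, beside 1803 with DESeq2 (1035 of them shared) and 506 with the rod markers as a covariate. Of the 10 genes, 3 were called, beside 0 with the rod markers as a covariate and 1, Gas6, with no replicate block. The fit without the block called 755 genes in all and 16 pathway genes, and Mertk and Itgav had adjusted p-values of 0.0675 and 0.204 in it. Of the pathway genes 15 were called, beside 3 with the rod markers. Leaving out each mouse gave 584 to 857 genes, 0 to 2 of the 10 genes and 5 to 11 pathway genes, with the lowest counts without mouse 2. Tyro3 ranged from -0.05, without mouse 1, to 0.17 over the fits without a mouse and was -0.07 with the pericyte and smooth muscle markers, and it passed in none of these. Itgav also lost its call with the muscle markers (adjusted p = 0.0509), the pericyte and smooth muscle markers (0.0566) and the melanocyte markers (0.064). Mertk was called in 10 of 14 alternatives, Gas6 in 9, Itgav in 6, Pros1 in 2 and Ptk2 in 1. Why these calls changed was not tested, except that leaving out a mouse leaves fewer samples. Cd36 had only 5 to 56 counts per library, and its log2 fold change ran from 0.08 with the rod markers to 1.39 without mouse 3.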

Other observations

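Other cells that an eyecup can hold were followed by their summed markers. Endothelial markers summed to 48.1 to 162 CPM in control and 76.1 to 164 CPM in Nrf2 eyes, and skeletal muscle markers to 71.2 to 132 and 12 to 796 CPM. Of the 13 endothelial and 12 muscle markers tested, 0 passed with edgeR or DESeq2, and 0 had an unadjusted p under 0.05 in edgeR. Of the 13 rod markers tested, 0 passed with either tool and 1 had an unadjusted p under 0.05. Fibroblast markers summed to 303 to 880 CPM in control and 229 to 852 CPM in Nrf2 eyes, and Fap fell. Choroidal melanocyte markers summed to 2590 to 7910 and 2760 to 6740 CPM, and Sox10 fell. Pericyte and smooth muscle markers summed to 293 to 1610 and 279 to 1290 CPM, and Kcnj8 fell. Mueller glia markers summed to 10400 to 18800 and 8490 to 14500 CPM, and Rlbp1 fell, which is also in the RPE list. Clu, Apoe and Rlbp1 had the most CPM of this list, with control means of 6230, 5400 and 2660 CPM, while Aqp4 and Gfap had 12 and 11 CPM. The sum was therefore not read as the amount of Mueller glia. Ezr stands in both the RPE and the engulfment lists, and Itgam in both the macrophage list and the list of other receptors.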
